A study of Mus musculus with 24 samples.

Results

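Genes of the Wnt pathway were followed in back skin of mice with beta-catenin activated in the epidermis and of wild-type mice. They were picked by symbol, with a regular expression over Wnt ligands, R-spondins, Lgr and Frizzled receptors, glypicans, secreted antagonists, feedback proteins, nuclear factors, planar polarity proteins and Wisp genes, and 56 of the 4560 genes named here matched. Of these, 11 are ligands or act in ligand export, 5 are R-spondins or their Lgr receptors, 9 are receptors or co-receptors and 5 are glypicans. A further 8 are secreted or surface antagonists, 6 are feedback or scaffold proteins inside the cell, 4 are nuclear factors or co-repressors, 4 are planar polarity proteins, 2 belong to the catenin family and 2 are matricellular proteins. All 56 passed into the tests, since no filter on low values was used. A gene carries a name here only because the authors listed it as regulated in these same samples, so the members are not an independent sample of the pathway and their counts are read against the other named genes.

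Cells were sorted from back skin of animals of a mixed C57BL/6 and CBA strain in 4 states, as GFP+ fibroblasts from dermis and ItgA6+ keratinocytes from epidermis. These were neonatal wild type, the D2 genotype with transient activation (anagen), the D2 genotype with sustained activation (ectopic follicles), and wild type in telogen, the resting phase of the hair cycle. Each of the 8 groups has 3 arrays of separate, numbered mice, 24 in all, and neither exact ages, the driver of GFP, nor the make-up of D2 is given in the sources used here. D2 and telogen arrays differ in genotype and in activation together, and neonatal and telogen arrays differ in age, so these cannot be told apart.

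Wnt ligands are lipid-modified secreted proteins that bind Frizzled receptors and Lrp co-receptors, after which beta-catenin escapes destruction and acts in the nucleus with Lef and Tcf factors. R-spondins acting through Lgr receptors strengthen the signal, while Dkk proteins block the co-receptor and Sfrp, Frzb and Wif1 bind ligands outside the cell. In skin the pathway is known for starting hair follicles before birth and for driving the resting follicle into growth, with signals passing in both directions between the epidermis and the dermis beneath it.

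Promoters are shown for the 4 antagonists called higher in sustained dermis, Dkk1, Dkk2, Frzb and Wif1, and for Wnt5b, a ligand called higher in sustained epidermis. Other members, such as Wisp2, were called between states as well. The windows run from 250 bases before to 50 bases after the start of each gene, on the gene's own strand, from RefSeq on the GRCm38.p6 mouse assembly. Each promoter was searched for CTTTGAA and CTTTGAT, spellings of the site bound by Tcf and Lef factors, on both strands, and a match stands in capitals. Dkk1 lies at chr19:30549447-30549746 on the minus strand, Dkk2 at chr3:132085042-132085341 on the plus strand, Frzb at chr2:80447347-80447646 on the minus strand, Wif1 at chr10:121033754-121034053 on the plus strand and Wnt5b at chr6:119449337-119449636 on the minus strand.
Dkk1: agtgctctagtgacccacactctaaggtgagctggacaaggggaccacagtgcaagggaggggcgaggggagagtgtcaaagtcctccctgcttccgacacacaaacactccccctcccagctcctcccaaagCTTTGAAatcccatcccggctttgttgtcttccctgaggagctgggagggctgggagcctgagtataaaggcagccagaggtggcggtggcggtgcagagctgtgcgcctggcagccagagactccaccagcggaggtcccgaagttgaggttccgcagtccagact
Dkk2: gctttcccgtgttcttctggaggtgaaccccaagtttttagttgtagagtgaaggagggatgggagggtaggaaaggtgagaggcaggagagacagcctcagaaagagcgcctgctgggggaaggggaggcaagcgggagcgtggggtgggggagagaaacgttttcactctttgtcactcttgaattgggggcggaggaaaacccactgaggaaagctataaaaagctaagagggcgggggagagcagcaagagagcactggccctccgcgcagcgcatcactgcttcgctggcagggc
Frzb: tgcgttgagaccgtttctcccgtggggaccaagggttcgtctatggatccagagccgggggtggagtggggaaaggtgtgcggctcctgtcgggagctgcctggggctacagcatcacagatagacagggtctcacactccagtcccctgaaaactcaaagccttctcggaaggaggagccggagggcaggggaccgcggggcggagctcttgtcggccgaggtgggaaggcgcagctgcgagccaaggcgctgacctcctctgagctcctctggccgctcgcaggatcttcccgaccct
Wif1: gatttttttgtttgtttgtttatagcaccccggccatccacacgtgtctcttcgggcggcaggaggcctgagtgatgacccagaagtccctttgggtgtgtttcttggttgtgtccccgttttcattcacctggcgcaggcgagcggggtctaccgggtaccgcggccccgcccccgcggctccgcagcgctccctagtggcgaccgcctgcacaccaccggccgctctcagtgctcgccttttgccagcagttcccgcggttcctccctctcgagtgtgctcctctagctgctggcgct
Wnt5b: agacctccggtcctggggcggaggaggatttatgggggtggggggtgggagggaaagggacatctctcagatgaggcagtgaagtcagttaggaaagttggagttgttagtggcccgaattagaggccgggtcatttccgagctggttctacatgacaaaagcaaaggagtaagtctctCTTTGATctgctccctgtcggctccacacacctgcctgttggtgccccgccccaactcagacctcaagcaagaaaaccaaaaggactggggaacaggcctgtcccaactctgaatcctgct
The Dkk1 window held 1 match, CTTTGAA, whose first base lies at position -117 from the gene start, and the Wnt5b window held 1, CTTTGAT, at -71. The windows of Dkk2, Frzb and Wif1 held none. Of 41 members with a promoter entry 3 held a match (Dkk1, Wnt5b and Prickle2), a share of 7.32%, against 9.88% of 27025 genes. The share among members was not above that of all genes, and a match is a run of letters, not a measured binding site.

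Values are log2 signals, and because each probe set has its own brightness they are compared between arrays and not between genes. A difference is the first-named group minus the second, in log2 units, with its standard error (SE) after the sign ±. A gene was called higher or lower where its limma p-value, adjusted by the method of Benjamini and Hochberg across 45037 probe sets, was under 0.05. Array medians lay between 4.34 and 5.5, and arrays of a group correlated at 0.819 to 0.931. The array of transient epidermis from mouse 4 had the highest median and the highest 5th percentile, 1.44, where the lowest of the 24 was -0.96. In these bulk sorts, fewer cells of a type and less RNA per cell cannot be told apart.

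Both sorts carried their markers, with signal of other cell types, in some groups strong, that moved with the states. The signal summed over the 8 named fibroblast genes (log2 of the linear sum) was 14.08 to 14.88 in dermis, and in epidermis it was 12.6 to 12.93 in neonatal, 8.88 to 9.14 in transient, 9.29 to 9.53 in sustained and 10.8 to 11.35 in telogen arrays. Over the 4 named keratinocyte genes (Krt5, Trp63, Itga6 and Perp) it was 13.24 to 13.73 in epidermis, and in dermis it was 8.92 to 9.6 in neonatal, 8.92 to 10.28 in transient, 10.8 to 11.67 in sustained and 8.74 to 9.65 in telogen arrays. Among dermal groups keratinocyte signal was thus highest in the sustained one, and among epidermal groups fibroblast signal was highest in the neonatal one. Over the 6 named macrophage genes the sum in epidermis was 10.23 to 10.35 in neonatal, 8.81 to 10.44 in transient, 8.05 to 8.4 in sustained and 10.99 to 11.52 in telogen arrays. In dermis it was highest in telogen arrays, at 9.46 to 9.73. The 2 named T cell genes also had their highest sum in telogen epidermis, 7.35 to 8.0. In sustained dermis 3 of 4 keratinocyte genes and 4 of 4 hair follicle keratinocyte genes were called higher than in telogen dermis. Called lower there were 2 of 2 endothelial, 3 of 8 fibroblast, 1 of 6 macrophage, 1 of 2 adipocyte and 1 of 3 muscle and pericyte genes. No T cell or melanocyte gene was called. Of the named genes 18.0% were higher and 19.2% lower. With so few genes in a list, single calls are not read as a loss of a cell type. The 6 named dermal papilla genes, markers of the fibroblast cluster at the follicle base, summed to 11.11 to 11.39 in neonatal, 11.54 to 12.58 in transient, 12.27 to 12.48 in sustained and 9.36 to 10.38 in telogen dermis. What part these shifts have in the results below was not tested.

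More Wnt genes were called between the sorts than in any comparison of states, and this was also so for the named genes. Each sort has 12 arrays here, where each group in a comparison of states has 3, so these comparisons differ in power. Averaged over the 4 states, 27 members were called higher in dermis than in epidermis and 21 lower, and only 8 were called neither way. Of the named genes 34.2% were called higher and 36.5% lower. Members had a median difference of 0.24, named genes of -0.04 and all probe sets of -0.26. With the mouse as a block, 46 members were called.

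Ligands and their brakes were found mostly on opposite sides. Of the 11 ligand genes 8 were lower in dermis (Wnt3, Wnt4, Wnt6, Wnt7a, Wnt7b, Wnt10a, Wnt10b and Wnt16) and 3 were higher (Wnt5b, Wnt9a and Gpr177). Of the 8 antagonists 6 were higher in dermis, Sfrp1 was lower, and Dkk3 was called neither way. All 4 planar polarity genes and both Lgr receptors were lower in dermis, while the 3 R-spondins, 5 of 6 feedback or scaffold genes and both Wisp genes were higher. These calls are of the mean over 4 states and need not hold in each state. Rspo3 averaged 5.82 in dermis and 1.62 in epidermis in neonatal arrays, but 2.58 and 2.61 in telogen arrays. Dkk1 averaged 7.17 and 2.69 in neonatal arrays, but 2.79 and 4.05 in transient arrays. The plot of dermal against epidermal means shows this split by role.

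**Figure D1:**
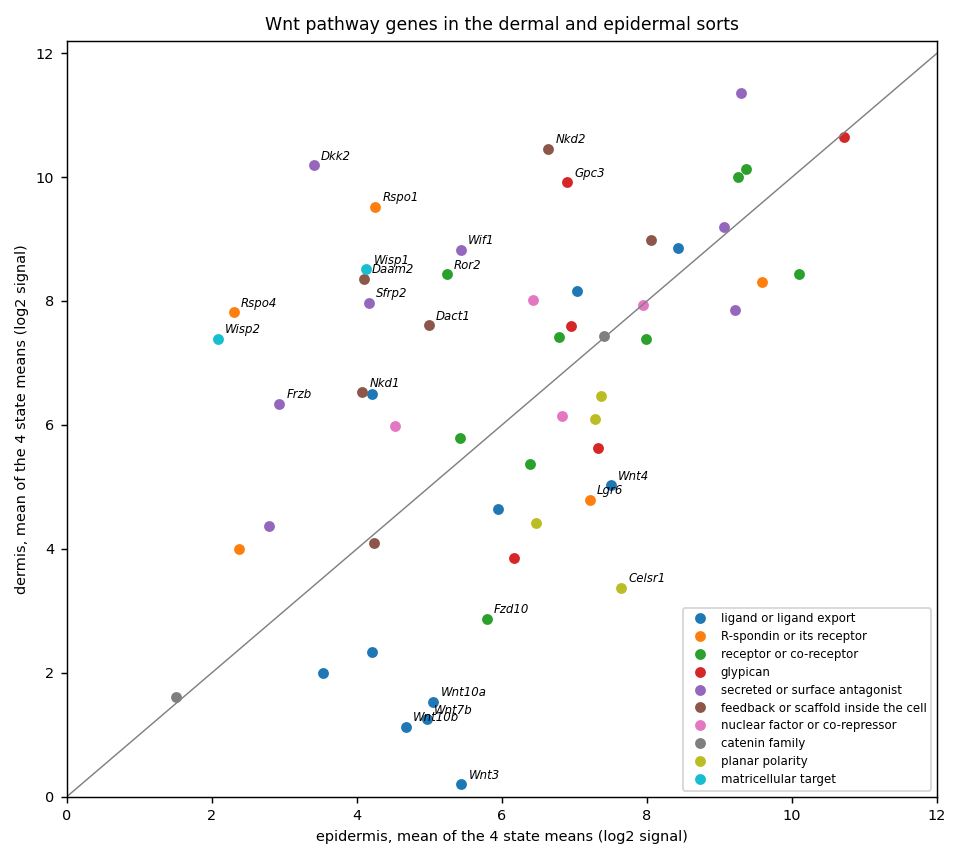
Mean log2 signal of each of the 56 Wnt pathway genes in dermis (vertical) and epidermis (horizontal), each the mean of the 4 state means, coloured by role, with the line of equal signal in grey; genes more than 2.4 log2 units apart carry a label. Most antagonists, the R-spondins and the Wisp genes lie above the line and most ligands and planar polarity genes below it, with Dkk2 at 6.79 and Wnt3 at -5.24 (dermis minus epidermis) the extremes. For both, all values in the lower sort lie below log2 5.

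Dkk2, which binds the Lrp co-receptors, spanned 8.67 to 11.4 (median 10.32) over the 12 dermal arrays and 0.18 to 4.76 (median 3.97) over the 12 epidermal arrays. The ranges were far apart, and the difference was 6.79 ± 0.42, adjusted p = 2.68e-10. All epidermal Dkk2 values lie below log2 5, so the size of this difference rests on dim signal. Rspo1, an agonist that acts through Lgr receptors, spanned 8.79 to 10.14 (median 9.59) in dermis and 2.28 to 5.45 (median 4.23) in epidermis (5.27 ± 0.18, adjusted p = 1.16e-13). Wisp1, a matricellular protein first described as induced by Wnt1, spanned 7.11 to 9.84 (median 8.56) in dermis and 2.77 to 6.03 (median 4.18) in epidermis (4.38 ± 0.21, adjusted p = 1.01e-11). In each of these genes every dermal array stood above every epidermal one. Wisp2, its relative, spanned 5.31 to 9.99 (median 6.96) in dermis and 0.64 to 4.77 (median 1.73) in epidermis, again without overlap (5.3 ± 0.28, adjusted p = 2.66e-11). Its epidermal values also lie below log2 5.

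Wnt3, a ligand of the beta-catenin branch, ran the other way. It spanned -2.57 to 2.76 (median 0.48) in dermis and 3.4 to 6.91 (median 5.61) in epidermis (-5.24 ± 0.51, adjusted p = 1.17e-07), and every epidermal array stood above every dermal one. Its dermal values lie near the 5th percentile of the arrays, so the size of this difference rests on dim signal. Celsr1, a large cadherin of planar polarity that aligns hair follicles, spanned 2.04 to 4.53 (median 3.43) in dermis and 6.85 to 8.89 (median 7.55) in epidermis, with the same lack of overlap (-4.27 ± 0.21, adjusted p = 1.56e-11). All its dermal values lie below log2 5. Daam2, a formin that binds Dishevelled, spanned 6.86 to 9.73 (median 8.45) in dermis and 2.35 to 5.78 (median 4.01) in epidermis (4.27 ± 0.24, adjusted p = 6.65e-11). Nkd2, which binds Dishevelled and dampens the signal, spanned 9.71 to 10.84 (median 10.49) in dermis and 4.22 to 9.13 (median 6.79) in epidermis (3.82 ± 0.26, adjusted p = 7.57e-10). Both were higher in all dermal arrays than in any epidermal one.

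In neonatal against telogen dermis 15 members were called higher and 10 lower, where 23.4% of named genes were higher and 28.2% lower. Transient activation gave 3 higher and 0 lower (named genes 1.43% and 0.439%), and sustained activation gave 11 higher and 6 lower (named genes 18.0% and 19.2%). Sustained against transient dermis had 1 higher and 3 lower (named genes 4.41% and 6.05%). The median of the members was 0.3 in neonatal, 0.17 in transient and 0.28 in sustained dermis relative to telogen, where that of all probe sets was 0.18, 0.13 and 0.42. Setting the median of every array to 0 gave 7 higher and 11 lower in sustained dermis. Shares of the named genes under this and the other alternative settings are not given here, so such counts are not read as results about the members.

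These dermal counts rest on few arrays. Without neonatal mouse 1 there were 15 neonatal calls in place of 25, and without telogen mouse 2 there were 11 sustained calls in place of 17. The 3 transient calls became 0 without telogen mouse 2, transient mouse 3 or transient mouse 4, and 1 without telogen mouse 4. The 4 calls of sustained against transient became 1 without transient mouse 3, sustained mouse 2 or sustained mouse 3, and 2 without sustained mouse 5.

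Neonatal against telogen epidermis had 7 called higher and 4 lower (named genes 12.3% and 16.8%), and transient against telogen had 3 higher and 2 lower (named genes 2.81% and 0.987%). Sustained against telogen had 3 higher and 2 lower (named genes 3.05% and 3.22%). Sustained against transient had 0 of either sign by limma (named genes 0.0439% and 0.0658%). At an unadjusted limma p under 0.05 there were 19 members, and limma with a trended, robust variance called 3. The matching shares of the named genes are not given here, so neither count is read as a result about the members. Member medians were 0.53 in neonatal, 0.12 in transient and 0.17 in sustained epidermis relative to telogen, against -0.01, 0.18 and 0.14 for all probe sets. With every array median set to 0 the calls were 10 higher and 2 lower in neonatal, 0 and 1 in transient, and 1 and 2 in sustained epidermis, again without shares of the named genes. In each sort the 3 comparisons with telogen share the same 3 telogen arrays.

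Single arrays moved these counts too. The 11 neonatal calls became 6 without telogen mouse 2, 7 without telogen mouse 3 or mouse 4, and 17 without the transient array of mouse 4, the one with the highest median. The 5 transient calls became 0 without any 1 of the telogen mice, 1 without transient mouse 2 and 2 without transient mouse 3 or mouse 4. The 5 sustained calls became 1 without telogen mouse 2 or mouse 3, 2 without telogen mouse 4, sustained mouse 2 or sustained mouse 3, and 3 without sustained mouse 5.

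**Figure D2:**
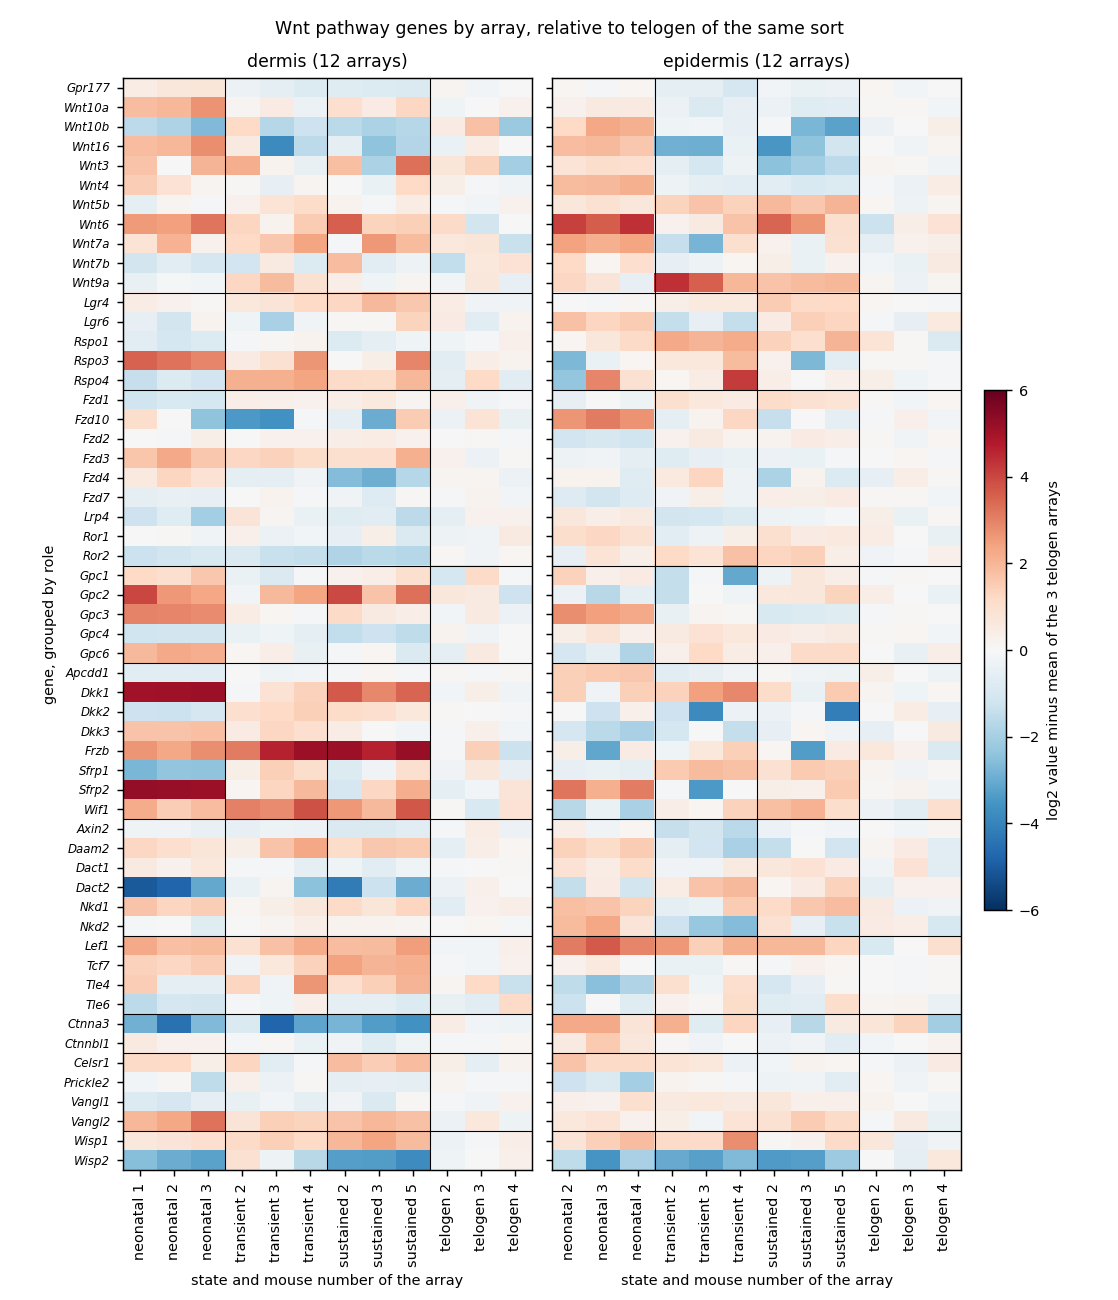
Log2 value of each of the 56 genes in each array minus the mean of the 3 telogen arrays of the same sort, dermis on the left and epidermis on the right, with genes grouped by role and arrays by state and mouse number. Red is above telogen and blue below; strong red marks Dkk1 and Sfrp2 in neonatal dermis, Frzb in transient and sustained dermis and Wnt6 in neonatal epidermis, and strong blue marks Dact2 in neonatal dermis and Wisp2 in sustained dermis.

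Among ligands, Wnt3, Wnt4, Wnt5b, Wnt6 and Wnt9a were called in epidermis, and Wnt6, Wnt10a and Gpr177 in dermis. Wnt6, a ligand of the early epidermis, read 8.23, 7.79 and 8.54 in neonatal, 4.41, 4.68 and 5.85 in transient, 7.62, 6.79 and 5.08 in sustained, and 2.87, 4.55 and 4.99 in telogen epidermis. All neonatal arrays stood above the arrays of other states, and sustained arrays stood above telogen arrays without passing the test (neonatal minus telogen 4.05 ± 0.72, adjusted p = 0.0105, sustained minus telogen 2.36 ± 0.72, adjusted p = 0.186). In dermis Wnt6 averaged 5.9 ± 0.4 in neonatal and 3.17 ± 1.13 in telogen arrays (SD, n = 3 each), a difference of 2.73 ± 0.71, adjusted p = 0.0326. Its genomic neighbour Wnt10a, a ligand active at the start of follicles, averaged 2.91 ± 0.44 in neonatal and 0.73 ± 0.25 in telogen dermis (2.18 ± 0.33, adjusted p = 0.0023). All dermal Wnt10a values lie below log2 5, so the size of this difference rests on dim signal. A second Wnt6 probe set rose in neonatal epidermis (2.07) but was not called in neonatal dermis (1.11), where the Wnt6 call held in 6 of 15 alternatives.

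Wnt4, a ligand made by keratinocytes, read 9.24, 9.27 and 9.44 in neonatal, 7.02, 6.79 and 6.67 in transient, 6.68, 6.41 and 6.48 in sustained, and 7.19, 6.99 and 7.78 in telogen epidermis. Neonatal arrays lay above all others (2.0 ± 0.25, adjusted p = 0.00241), and the transient and sustained arrays overlapped or lay just under telogen ones (-0.49 ± 0.25 and -0.79 ± 0.25, neither called). Wnt3 read 6.71, 6.91 and 6.89 in neonatal, 5.32, 4.82 and 5.57 in transient, 3.4, 3.77 and 4.31 in sustained, and 6.02, 5.92 and 5.66 in telogen epidermis. The 4 states did not overlap, and the fall in sustained against telogen epidermis passed the test (-2.04 ± 0.29, adjusted p = 0.0134, called in 9 of 15 alternatives), while the difference of sustained from transient did not (-1.41 ± 0.29, adjusted p = 0.212).

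Wnt5b and Wnt9a, which are brighter in dermis, were higher in the epidermis of D2 mice. Wnt5b, a ligand usually placed in the branch without beta-catenin, read 6.68, 6.92 and 6.7 in neonatal, 7.33, 7.72 and 7.4 in transient, 7.95, 7.63 and 8.05 in sustained, and 6.14, 5.72 and 6.17 in telogen epidermis. Neither D2 group overlapped telogen, and both differences passed (transient 1.47 ± 0.23, adjusted p = 0.027, sustained 1.86 ± 0.23, adjusted p = 0.00939). The transient call held in 5 of 14 alternatives and the sustained one in 13 of 15. Wnt9a read 4.04, 3.54 and 2.28 in neonatal, 7.17, 6.35 and 4.77 in transient, 4.51, 4.66 and 4.75 in sustained, and 2.96, 2.43 and 2.95 in telogen epidermis. All D2 arrays were above the telogen ones, and the transient difference passed (3.32 ± 0.6, adjusted p = 0.0378) where the sustained one did not (1.87 ± 0.6, adjusted p = 0.208). The transient call held in 5 of 14 alternatives. Of the 8 fibroblast genes 2 were called lower and 0 higher in each D2 epidermal group. The shares of named genes called lower and higher were 0.987% and 2.81% in transient, and 3.22% and 3.05% in sustained epidermis. Not all 8 went down: Col5a1 averaged 6.84 in transient, 7.7 in sustained and 5.79 in telogen epidermis, without a call. Their part in the Wnt5b and Wnt9a results was not tested.

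Gpr177, now named Wls, carries Wnt proteins to the cell surface. Its dermal values were 9.51, 9.71 and 9.77 in neonatal, 8.68, 8.53 and 8.23 in transient, 8.31, 8.23 and 8.2 in sustained, and 9.21, 8.88 and 9.06 in telogen. Sustained arrays lay below all telogen arrays (-0.81 ± 0.2, adjusted p = 0.034), although the call held in only 6 of 15 alternative settings and in 1 of its 2 other probe sets. Its epidermal values were 8.8, 8.59 and 8.79 in neonatal, 8.09, 8.11 and 7.65 in transient, 8.49, 8.27 and 8.32 in sustained, and 8.8, 8.49 and 8.7 in telogen, with no call against telogen. The ligands Wnt7a, Wnt7b, Wnt10b and Wnt16 were called in none of the 8 comparisons between states. Wnt16 and Wnt7a had means of 6.0 ± 0.17 and 6.13 ± 0.17 in neonatal and 4.18 ± 0.2 and 3.82 ± 0.49 in telogen epidermis (SD, n = 3 each), with adjusted p of 0.166 and 0.114.

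**Figure D3:**
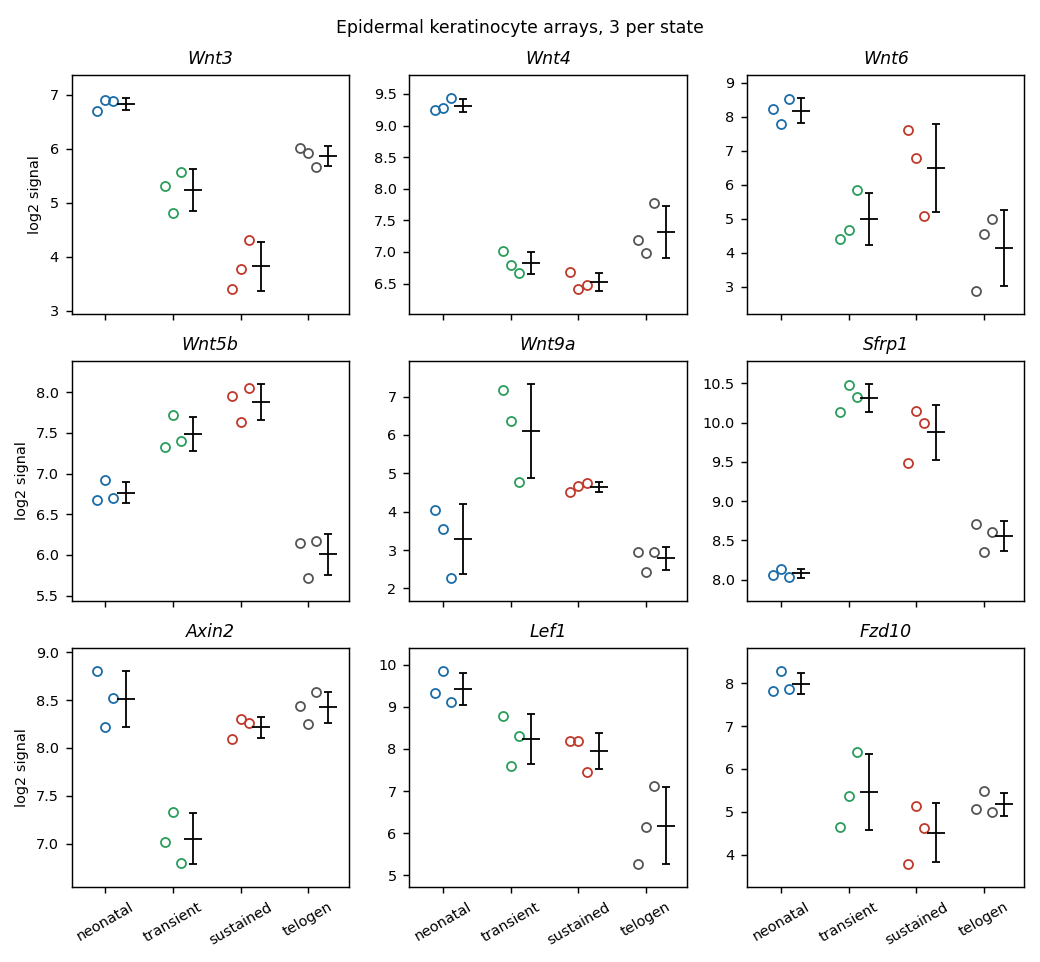
Log2 signal of 9 genes in epidermal arrays by state; circles are arrays, and the black mark with bars is the mean with its SD (n = 3). Wnt4, Wnt6, Lef1 and Fzd10 are highest in neonatal arrays, Wnt5b, Wnt9a and Sfrp1 are above telogen in both D2 states, Wnt3 is lowest in sustained arrays, and Axin2 is lowest in transient arrays.

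Of the R-spondins and their receptors, Rspo1 and Rspo3 were called in dermis, Lgr6 in epidermis and Lgr4 in both. Rspo3, an agonist that acts through Lgr receptors, read 6.11, 5.86 and 5.49 in neonatal, 3.05, 3.5 and 5.21 in transient, 2.61, 2.92 and 5.51 in sustained, and 1.93, 3.0 and 2.81 in telogen dermis. Neonatal arrays were above all telogen arrays (3.24 ± 0.78, adjusted p = 0.0224), while transient mouse 4 and sustained mouse 5 reached values near the neonatal ones and neither D2 group was called. Rspo1 read 9.22, 8.79 and 9.04 in neonatal, 9.75, 9.9 and 10.06 in transient, 9.04, 9.31 and 9.58 in sustained, and 9.6, 9.77 and 10.14 in telogen dermis. Neonatal arrays were below telogen (-0.82 ± 0.24, adjusted p = 0.0491), a call that held in 4 of 14 alternatives. Rspo4 was not called between states, with 9.4 ± 0.12 in transient and 7.19 ± 1.05 in telogen dermis.

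Lgr4, a broadly expressed receptor for R-spondins, read 8.06, 7.87 and 7.71 in neonatal, 8.24, 8.4 and 8.82 in transient, 8.86, 9.56 and 9.23 in sustained, and 8.05, 7.41 and 7.4 in telogen dermis. In epidermis it read 9.17, 9.05 and 9.22 in neonatal, 9.48, 9.73 and 9.74 in transient, 10.65, 10.28 and 10.35 in sustained, and 9.26, 9.12 and 9.07 in telogen. Sustained arrays were above telogen arrays in both sorts, with 1.6 ± 0.28, adjusted p = 0.00787 in dermis and 1.27 ± 0.21, adjusted p = 0.0221 in epidermis, and Lgr4 was the single member called higher in both sorts with sustained activation. The epidermal call held in 6 of 15 alternatives. Lgr6, which marks stem cells of the upper follicle, averaged 8.35 ± 0.23 in neonatal and 6.84 ± 0.53 in telogen epidermis (1.51 ± 0.38, adjusted p = 0.0443), a call that held in 5 of 15 alternatives. Its sustained and transient epidermal arrays did not overlap, at 7.9 ± 0.5 and 5.73 ± 0.53, without a call (2.17 ± 0.38, adjusted p = 0.155).

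Of the 9 receptors, Fzd1, Fzd2, Fzd3, Fzd4, Fzd10 and Ror2 were called between states. Fzd4, a receptor also found in blood vessels, read 6.86, 7.53 and 7.15 in neonatal, 5.73, 5.71 and 6.03 in transient, 3.67, 3.32 and 4.56 in sustained, and 6.43, 6.43 and 5.93 in telogen dermis. Sustained arrays lay below all other dermal arrays, and Fzd4 was lower than in telogen (-2.41 ± 0.34, adjusted p = 0.00278) and than in transient dermis (-1.97 ± 0.34, adjusted p = 0.021). The endothelial genes Tek and Kdr were also lower in sustained than in telogen dermis (-4.39 ± 0.51, adjusted p = 0.00138 and -3.26 ± 0.76, adjusted p = 0.0251), and their part in the Fzd4 result was not tested. In neonatal minus telogen dermis the differences were 0.92 ± 0.34, adjusted p = 0.107 for Fzd4, -4.89 ± 0.51, adjusted p = 0.000292 for Tek and -1.28 ± 0.76, adjusted p = 0.317 for Kdr.

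Fzd3, a receptor tied to planar polarity, read 5.9, 6.51 and 5.86 in neonatal, 5.48, 5.63 and 5.35 in transient, 5.22, 5.25 and 6.36 in sustained, and 4.52, 3.88 and 4.32 in telogen dermis. Telogen arrays were below all others, with calls in neonatal (1.85 ± 0.35, adjusted p = 0.00713) and sustained dermis (1.37 ± 0.35, adjusted p = 0.0339), the second of which held in 5 of 15 alternatives. Its second probe set was called in neither (0.97 and 0.81). Fzd1 read 9.03, 9.32 and 9.17 in neonatal, 10.62, 10.53 and 10.46 in transient, 10.63, 10.82 and 10.37 in sustained, and 10.53, 10 and 10.13 in telogen dermis, and only its neonatal arrays were below telogen (-1.05 ± 0.22, adjusted p = 0.0123). Fzd1 in epidermis was 8.51, 9.03 and 8.69 in neonatal, 9.95, 9.66 and 9.52 in transient, 10.13, 9.92 and 9.82 in sustained, and 9.06, 8.85 and 9.13 in telogen, with no call.

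Fzd10, a receptor of the epidermal side, read 7.82, 8.28 and 7.87 in neonatal, 4.65, 5.36 and 6.4 in transient, 3.78, 5.13 and 4.63 in sustained, and 5.06, 5.48 and 4.99 in telogen epidermis. Neonatal arrays stood above all others (2.82 ± 0.46, adjusted p = 0.00775). Fzd2 went the other way, averaging 8.25 ± 0.14 in neonatal and 9.35 ± 0.18 in telogen epidermis (-1.1 ± 0.21, adjusted p = 0.0151). Ror2, the receptor tyrosine kinase through which Wnt5a acts, read 8.16, 8.35 and 8.5 in neonatal, 8.57, 8.09 and 8.01 in transient, 7.64, 7.81 and 7.7 in sustained, and 9.51, 9.24 and 9.53 in telogen dermis. Telogen arrays were the highest, and Ror2 was lower in neonatal (-1.09 ± 0.22, adjusted p = 0.01) and sustained dermis (-1.71 ± 0.22, adjusted p = 0.00199), with -1.21 ± 0.22, adjusted p = 0.0526 in transient dermis. Fzd7, Lrp4 and Ror1 were called in no comparison between states.

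Glypicans are proteoglycans of the cell surface that hold ligands, and in neonatal dermis Gpc2, Gpc3 and Gpc6 were called higher and Gpc4 lower. Of the named genes 23.4% were higher and 28.2% lower there. Gpc3, which is mutated in an overgrowth syndrome in humans, read 11.96, 11.9 and 11.83 in neonatal, 9.44, 9.09 and 8.87 in transient, 10.12, 9.53 and 9.39 in sustained, and 8.82, 9.5 and 8.64 in telogen dermis. Its epidermal values were 9.27, 8.97 and 8.75 in neonatal, 6.06, 6.65 and 6.59 in transient, 5.6, 5.7 and 5.76 in sustained, and 6.45, 6.57 and 6.47 in telogen. Neonatal arrays were above all others in both sorts (2.91 ± 0.3, adjusted p = 0.000257 in dermis, 2.5 ± 0.24, adjusted p = 0.00069 in epidermis). In neonatal epidermis 4 of 8 fibroblast genes were also called higher (named genes 12.3%). Gpc6 read 9.08, 9.4 and 9.32 in neonatal, 7.24, 7.53 and 6.69 in transient, 7.02, 7.26 and 6.25 in sustained, and 6.55, 7.64 and 7.16 in telogen dermis, with the neonatal arrays above all others (2.15 ± 0.36, adjusted p = 0.00438).

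Gpc2 read 6.04, 4.61 and 4.34 in neonatal, 1.83, 3.95 and 4.37 in transient, 5.99, 3.71 and 5.33 in sustained, and 2.71, 2.57 and 0.76 in telogen dermis. Neonatal arrays were above telogen (2.98 ± 0.86, adjusted p = 0.0468, called in 5 of 14 alternatives), and sustained ones were also above telogen but missed the threshold (3.0 ± 0.86, adjusted p = 0.0518). Gpc4, the neighbour of Gpc3 on chromosome X, moved against it. Its dermal values were 10.19, 10.27 and 10.28 in neonatal, 10.99, 11.12 and 10.83 in transient, 9.93, 10.14 and 9.88 in sustained, and 11.58, 11.17 and 11.43 in telogen. Both the neonatal and the sustained arrays lay below all transient and telogen arrays (neonatal minus telogen -1.14 ± 0.2, adjusted p = 0.00483, sustained minus telogen -1.41 ± 0.2, adjusted p = 0.00284, sustained minus transient -1.0 ± 0.2, adjusted p = 0.0355). The last of these calls held in 7 of 14 alternatives. In epidermis Gpc4 read 10.68, 11.06 and 10.61 in neonatal, 10.86, 11.18 and 10.96 in transient, 10.78, 10.72 and 10.86 in sustained, and 10.4, 10.41 and 10.13 in telogen, with no call. Gpc1 was not called between states.

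The secreted antagonists gave the largest changes in dermis, and the D2 groups and the neonatal group did not share one pattern. Dkk1, which blocks Lrp co-receptors, read 7.11, 7.18 and 7.22 in neonatal, 1.95, 2.94 and 3.48 in transient, 5.78, 4.98 and 5.57 in sustained, and 1.93, 2.44 and 1.9 in telogen dermis. Neonatal arrays were the highest and sustained ones lay between these and the transient arrays, which overlapped telogen. Dkk1 was called in neonatal (5.08 ± 0.38, adjusted p = 5.71e-05) and sustained dermis (3.35 ± 0.38, adjusted p = 0.00128) and in sustained against transient dermis (2.65 ± 0.38, adjusted p = 0.0109), and the first of these calls held in all 15 alternatives, as did the second. A second Dkk1 probe set gave 6.9 and 4.21 for the first 2 of these, both called, and 3.7 for the last, not called. All telogen and transient Dkk1 values in dermis lie below log2 5, so the size of these differences rests on dim signal.

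Frzb, a secreted Frizzled-like protein that binds ligands, read 6.03, 5.69 and 6.15 in neonatal, 6.49, 8.0 and 8.5 in transient, 8.51, 8.0 and 8.59 in sustained, and 3.24, 4.79 and 2.09 in telogen dermis. All telogen arrays lay below those of the other states, and transient and sustained arrays overlapped. The difference from telogen was 2.58 ± 0.67, adjusted p = 0.0309 in neonatal, 4.29 ± 0.67, adjusted p = 0.0321 in transient and 4.99 ± 0.67, adjusted p = 0.00233 in sustained dermis. Telogen arrays themselves spread over more than 2 log2 units (SD 1.35), and the neonatal, transient and sustained calls held in 7, 9 and 14 of 15 alternatives. A second Frzb probe set was called in all 3 comparisons too (1.47, 3.04 and 4.19).

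Wif1, which binds ligands through its own WIF domain, read 9.11, 8.36 and 8.71 in neonatal, 9.89, 9.7 and 10.68 in transient, 9.46, 8.83 and 10.61 in sustained, and 6.94, 5.94 and 7.75 in telogen dermis. Telogen arrays were below all others, with calls in transient (3.22 ± 0.55, adjusted p = 0.0424) and sustained dermis (2.76 ± 0.55, adjusted p = 0.0133) but not in neonatal dermis (1.85 ± 0.55, adjusted p = 0.0534). The transient call held in 5 of 14 alternatives. Dkk2 read 8.7, 8.67 and 8.96 in neonatal, 10.95, 11.15 and 11.4 in transient, 11.03, 10.96 and 10.6 in sustained, and 10.04, 9.97 and 9.84 in telogen dermis. The groups fell into order without overlap between neonatal, telogen and the D2 arrays: Dkk2 was lower in neonatal dermis (-1.18 ± 0.22, adjusted p = 0.00655) and higher in transient (1.21 ± 0.22, adjusted p = 0.0492) and sustained dermis (0.91 ± 0.22, adjusted p = 0.0269). It was the single member called in opposite directions in neonatal and sustained dermis. The D2 calls of Dkk2 held in 4 of 14 and 6 of 14 alternatives. Dermal papilla genes were high in the same D2 arrays, with 3 of 6 called higher in transient and 5 of 6 in sustained dermis (named genes 1.43% and 18.0%). In neonatal dermis, where Dkk2 was lower, 3 of 6 were called higher as well (named genes 23.4%). Their part in the Dkk2 result was not tested.

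Sfrp2, a secreted Frizzled-related protein of fibroblasts, read 11.45, 11.39 and 11.33 in neonatal, 6.31, 7.49 and 8.12 in transient, 5.18, 7.43 and 8.38 in sustained, and 5.58, 6.02 and 6.95 in telogen dermis. Neonatal arrays stood far above the rest, which overlapped (5.21 ± 0.76, adjusted p = 0.00189; sustained minus telogen 0.81 ± 0.76, adjusted p = 0.511). Sfrp1, its relative, read 5.53, 5.88 and 5.82 in neonatal, 8.62, 9.66 and 9.32 in transient, 7.44, 8.03 and 9.22 in sustained, and 8.05, 8.94 and 7.76 in telogen dermis. Here the neonatal arrays were the lowest (-2.51 ± 0.48, adjusted p = 0.008), and all 4 other Sfrp1 probe sets were called lower as well (-3.29 to -2.41). In epidermis Sfrp1 read 8.06, 8.14 and 8.04 in neonatal, 10.13, 10.48 and 10.32 in transient, 9.48, 10.15 and 10 in sustained, and 8.71, 8.35 and 8.61 in telogen. Both D2 groups were above telogen and the neonatal group below it, with calls in transient (1.75 ± 0.24, adjusted p = 0.0161) and sustained epidermis (1.32 ± 0.24, adjusted p = 0.0341). Of the other 4 probe sets 0 were called in transient epidermis (1.06 to 1.43) and 2 in sustained epidermis (1.35 to 2.19), and the calls held in 8 of 15 and 5 of 16 alternatives.

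Dkk3, a distant member of the Dkk family, read 10.2, 10.22 and 10.33 in neonatal, 8.99, 9.76 and 9.52 in transient, 8.94, 8.5 and 8.33 in sustained, and 8.38, 8.82 and 8.33 in telogen dermis, where neonatal arrays stood above the rest (1.74 ± 0.27, adjusted p = 0.00271). Apcdd1, a membrane inhibitor mutated in a hereditary hair loss, read 10.86, 10.93 and 10.86 in neonatal, 11.57, 11.32 and 11.38 in transient, 11.48, 11.68 and 11.51 in sustained, and 11.64, 11.42 and 11.63 in telogen dermis. In epidermis it read 10.47, 10.63 and 10.69 in neonatal, 8.38, 8.57 and 8.86 in transient, 9.12, 8.86 and 8.75 in sustained, and 9.39, 9.03 and 8.77 in telogen. Neonatal arrays were below all others in dermis (-0.68 ± 0.18, adjusted p = 0.0373) and above all others in epidermis (1.53 ± 0.24, adjusted p = 0.00648). The epidermal call held in all 16 alternatives and the dermal one in 8 of 15. Of the 3 other Apcdd1 probe sets 1 was called in neonatal epidermis (1.07 to 1.81) and 2 in neonatal dermis (-0.96 to -0.32).

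**Figure D4:**
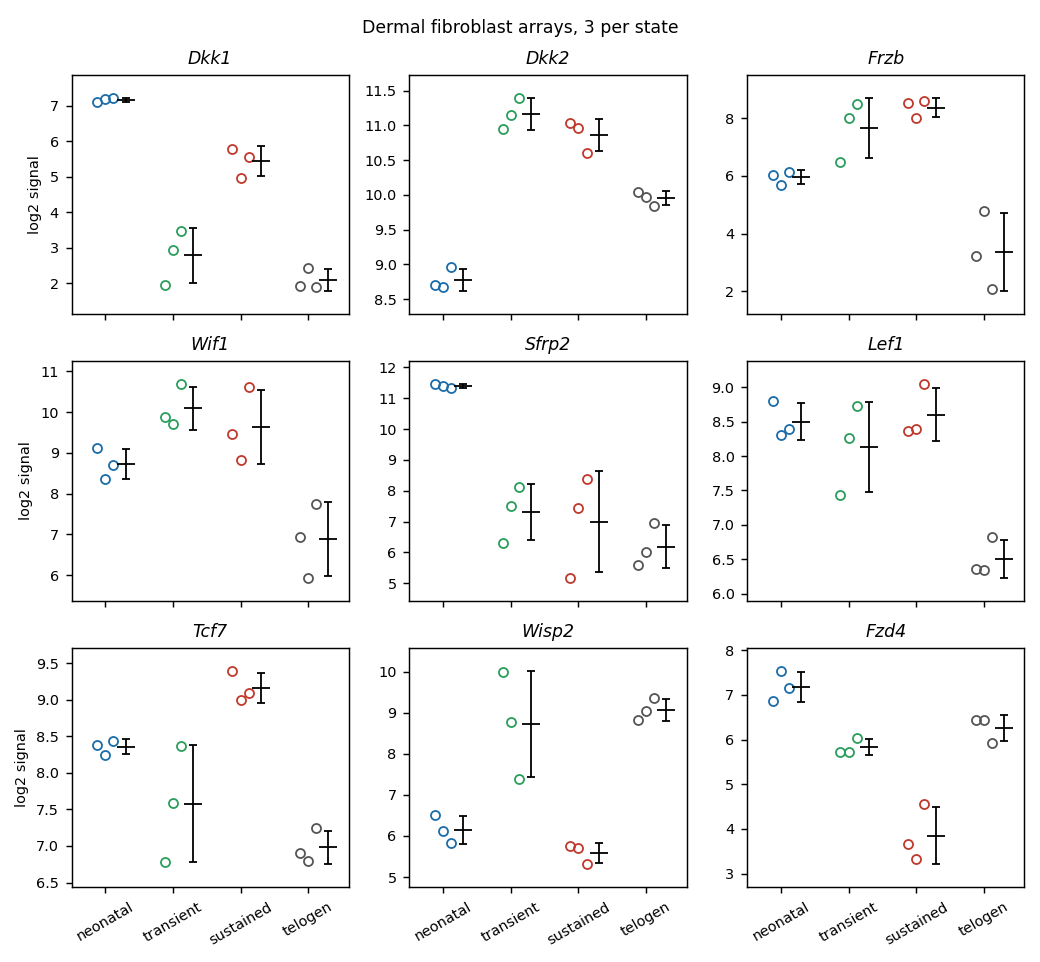
Log2 signal of 9 genes in dermal arrays by state; circles are arrays, and the black mark with bars is the mean with its SD (n = 3). Dkk1 and Sfrp2 are highest in neonatal arrays, Dkk2, Frzb and Wif1 are above telogen in both D2 states, Tcf7 is highest and Fzd4 lowest in sustained arrays, and Wisp2 is low in neonatal and sustained arrays.

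Of the feedback and scaffold proteins, Axin2 was called in transient epidermis, and Dact2 and Nkd1 in neonatal dermis. Axin2, a scaffold of the destruction complex that beta-catenin itself induces, read 8.8, 8.22 and 8.52 in neonatal, 7.02, 7.33 and 6.8 in transient, 8.09, 8.3 and 8.26 in sustained, and 8.44, 8.25 and 8.58 in telogen epidermis. Transient arrays lay below all others (-1.37 ± 0.24, adjusted p = 0.0361), while sustained and telogen arrays overlapped (-0.2 ± 0.24, adjusted p = 0.79). In dermis Axin2 read 9.08, 9.14 and 8.91 in neonatal, 8.87, 9.05 and 9.01 in transient, 8.49, 8.47 and 8.72 in sustained, and 9.25, 9.82 and 9.01 in telogen, and sustained arrays lay below telogen without a call (-0.8 ± 0.24, adjusted p = 0.0587). The transient epidermal call held in 6 of 14 alternatives.

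Dact2, a Dishevelled-binding protein, read 1.05, 1.36 and 3.01 in neonatal, 5.69, 6.26 and 3.66 in transient, 1.91, 4.81 and 3.13 in sustained, and 5.77, 6.41 and 6.11 in telogen dermis. Neonatal arrays were below telogen (-4.29 ± 0.85, adjusted p = 0.00961), and the sustained ones missed the threshold (-2.81 ± 0.85, adjusted p = 0.0632). All neonatal and sustained dermal Dact2 values lie below log2 5, so the size of these differences rests on dim signal. Nkd1, a feedback inhibitor, averaged 7.29 ± 0.23 in neonatal and 5.8 ± 0.57 in telogen dermis (1.48 ± 0.32, adjusted p = 0.0136). Nkd2 read 10.36, 10.39 and 9.71 in neonatal, 10.42, 10.58 and 10.84 in transient, 10.66, 10.62 and 10.61 in sustained, and 10.44, 10.55 and 10.29 in telogen dermis, with no call. In epidermis it read 8.69, 9.13 and 7.57 in neonatal, 5.59, 4.55 and 4.22 in transient, 7.71, 6.34 and 5.46 in sustained, and 7.31, 7.23 and 5.87 in telogen, where transient arrays lay below telogen but overlapped sustained ones, without a call (-2.02 ± 0.67, adjusted p = 0.175). Daam2 and Dact1 were not called between states.

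The nuclear factors Lef1 and Tcf7, through which beta-catenin acts on DNA, were higher in sustained and neonatal dermis. Lef1 read 8.8, 8.31 and 8.39 in neonatal, 7.43, 8.26 and 8.72 in transient, 8.37, 8.39 and 9.04 in sustained, and 6.36, 6.34 and 6.82 in telogen dermis. In epidermis it read 9.32, 9.85 and 9.11 in neonatal, 8.78, 7.6 and 8.32 in transient, 8.19, 8.19 and 7.46 in sustained, and 5.28, 6.15 and 7.12 in telogen. Telogen arrays were below all others in both sorts. Calls were made in neonatal (1.99 ± 0.35, adjusted p = 0.00543) and sustained dermis (2.1 ± 0.35, adjusted p = 0.00648) and in neonatal epidermis (3.24 ± 0.48, adjusted p = 0.0051), but not in transient dermis (1.63 ± 0.35, adjusted p = 0.0853) or in transient (2.05 ± 0.48, adjusted p = 0.0909) or sustained epidermis (1.76 ± 0.48, adjusted p = 0.147). All 3 Lef1 calls held in every alternative run.

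Tcf7 read 8.38, 8.24 and 8.44 in neonatal, 6.78, 7.59 and 8.37 in transient, 9.39, 9.0 and 9.09 in sustained, and 6.9, 6.8 and 7.24 in telogen dermis. Sustained arrays were above all others, and neonatal arrays were above telogen and overlapped the transient ones (sustained 2.18 ± 0.36, adjusted p = 0.0056, neonatal 1.38 ± 0.36, adjusted p = 0.0315). The sustained call held in all 15 alternatives and the neonatal one in 7 of 15. Its epidermal values spanned 5.97 to 6.95 (median 6.43), with no call against telogen. Tle4, a co-repressor of the Groucho family, read 5.75, 4.77 and 5.47 in neonatal, 8.24, 7.03 and 8.29 in transient, 6.29, 6.82 and 7.35 in sustained, and 7.27, 7.22 and 7.37 in telogen epidermis. Neonatal arrays lay below all telogen arrays (-1.95 ± 0.41, adjusted p = 0.0217). Tle6 was not called between states.

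All 4 planar polarity genes are brighter in epidermis, and Celsr1 and Vangl2 were higher in sustained dermis. Vangl2, a membrane protein that sets planar polarity, read 5.03, 5.33 and 6.3 in neonatal, 3.81, 4.46 and 4.34 in transient, 4.75, 5.0 and 4.8 in sustained, and 2.67, 3.67 and 2.73 in telogen dermis. Telogen arrays were below all others, with calls in neonatal (2.53 ± 0.38, adjusted p = 0.00243) and sustained dermis (1.83 ± 0.38, adjusted p = 0.0167). Celsr1 averaged 4.4 ± 0.21 in sustained and 2.67 ± 0.52 in telogen dermis (1.73 ± 0.49, adjusted p = 0.0495), a call that held in 2 of 13 alternatives. Of the 11 members higher in sustained dermis 4 belong to those brighter in epidermis (Celsr1, Fzd3, Lgr4 and Vangl2), 6 to those brighter in dermis (Dkk1, Dkk2, Frzb, Tcf7, Wif1 and Wisp1), and Lef1 was called neither way. Among all 56 members 21 were brighter in epidermis and 27 in dermis, so this split is near that of the whole set. The keratinocyte genes Trp63 and Itga6 differed by 2.39 ± 0.34, adjusted p = 0.00316 and 2.68 ± 0.41, adjusted p = 0.00403 in sustained minus telogen dermis, and their part in the calls of sustained dermis was not tested.

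Prickle2, a cytoplasmic planar polarity protein, read 6.56, 6.95 and 5.76 in neonatal, 8.01, 7.85 and 7.74 in transient, 7.49, 7.57 and 7.11 in sustained, and 7.93, 7.61 and 7.87 in telogen epidermis. Neonatal arrays were below the others (-1.38 ± 0.31, adjusted p = 0.0274, called in 7 of 15 alternatives). In dermis Prickle2 read 6.56, 6.8 and 5.19 in neonatal, 7.04, 6.37 and 6.8 in transient, 6.15, 6.22 and 6.2 in sustained, and 6.9, 6.62 and 6.68 in telogen, without a call. Vangl1 was called in no comparison between states. In the catenin family Ctnnbl1, a nuclear protein of RNA splicing that resembles beta-catenin in sequence only, spanned 6.75 to 8.02 (median 7.42) in dermis and 6.66 to 8.86 (median 7.24) in epidermis, with no call. Ctnna3, an alpha-catenin best known from heart, read 1.11, -0.5 and 1.33 in neonatal, 3.12, -0.76 and 0.84 in transient, 1.2, 0.65 and 0.37 in sustained, and 4.43, 3.82 and 3.71 in telogen dermis. It is a dim probe set in all groups, and its neonatal (-3.34 ± 0.85, adjusted p = 0.0289) and sustained calls (-3.25 ± 0.85, adjusted p = 0.0379) held in 7 and 6 of 13 alternatives.

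The Wisp genes, now named Ccn4 (Wisp1) and Ccn5 (Wisp2), went in opposite directions. Wisp1 read 8.11, 8.23 and 8.49 in neonatal, 8.63, 8.89 and 8.68 in transient, 9.45, 9.84 and 9.36 in sustained, and 7.11, 7.42 and 7.87 in telogen dermis. The 4 states did not overlap and ran from telogen through neonatal and transient to sustained, with a call in sustained (2.08 ± 0.25, adjusted p = 0.00165) and not in transient (1.27 ± 0.25, adjusted p = 0.07) or neonatal dermis (0.81 ± 0.25, adjusted p = 0.062). In epidermis Wisp1 spanned 2.77 to 6.03 (median 4.18), with no call.

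Wisp2 read 6.52, 6.11 and 5.84 in neonatal, 9.99, 8.78 and 7.4 in transient, 5.76, 5.7 and 5.31 in sustained, and 8.82, 9.04 and 9.36 in telogen dermis. Its neonatal (-2.92 ± 0.54, adjusted p = 0.00654) and sustained arrays (-3.48 ± 0.54, adjusted p = 0.00421) were below all telogen and transient arrays, and sustained was also below transient dermis (-3.13 ± 0.54, adjusted p = 0.0213). Transient arrays spread from 7.4 to 9.99 and overlapped telogen. The epidermal values were 2.63, 0.64 and 2.2 in neonatal, 1.14, 0.88 and 1.49 in transient, 0.74, 0.85 and 1.97 in sustained, and 4.13, 3.58 and 4.77 in telogen. All telogen arrays lay above the rest, with calls in neonatal (-2.34 ± 0.55, adjusted p = 0.0328), transient (-2.99 ± 0.55, adjusted p = 0.0403) and sustained epidermis (-2.98 ± 0.55, adjusted p = 0.035), so that Wisp2 was the single member called in 5 of the 6 comparisons with telogen. All epidermal Wisp2 values lie below log2 5, and the neonatal, transient and sustained calls there held in 7 of 14, 4 of 13 and 6 of 14 alternatives. Of the 8 fibroblast genes, 4 were called higher and 0 lower in neonatal epidermis (named genes 12.3% and 16.8%). In each D2 epidermal group 2 were called lower and 0 higher, with differences over the 8 genes of -3.22 to 1.25 in transient and -2.6 to 1.91 in sustained epidermis. Their part in the Wisp2 result was not tested.

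Whether a change differed between the sorts was tested directly. The neonatal change differed in 16 members, 10 higher and 6 lower in dermis than in epidermis (named genes 11.4% and 13.3%). The transient change differed in 3, with 1 higher and 2 lower (named genes 1.89% and 2.32%), and the sustained change in 9, with 5 higher and 4 lower (named genes 7.13% and 6.16%). A mouse number found in dermis and epidermis of 1 state was read as 1 animal. With the mouse as a block 4, 0 and 3 members were called. With array medians set to 0 the splits were 5 higher and 8 lower, 0 and 1, and 2 and 4. Shares of the named genes are not given for the block or the centring. Leaving out 1 array left 9 to 16, 1 to 5 and 5 to 10 calls. The neonatal change gave 9 without dermal neonatal mouse 1 and 10 without epidermal telogen mouse 3 or 4. The transient change gave 5 without dermal telogen mouse 3, and 1 without dermal telogen mouse 4, epidermal telogen mouse 3 or 4, dermal transient mouse 3 or epidermal transient mouse 2 or 4. The sustained change gave 5 without dermal telogen mouse 2, any epidermal telogen mouse, dermal sustained mouse 2 or 5, or epidermal sustained mouse 2.

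In the neonatal state the largest differences between sorts were of genes that moved in dermis. Rspo3 stood apart from telogen by 3.24 in dermis and by -0.98 in epidermis (4.22 ± 1.19, adjusted p = 0.0438), with -0.07, 2.21 and 2.74 in neonatal and 2.68, 2.67 and 2.48 in telogen epidermis. Dkk1 stood apart from telogen by 5.08 and 0.89 likewise (4.19 ± 0.74, adjusted p = 0.0021), with 3.24, 1.59 and 3.24 in neonatal and 1.96, 1.53 and 1.93 in telogen epidermis. In both the neonatal epidermal arrays overlapped the telogen ones. Gpc2 stood apart from telogen by 2.98 in dermis and -0.86 in epidermis (3.85 ± 1.01, adjusted p = 0.0297), with 5.93, 4.62 and 5.73 in neonatal and 6.7, 6.26 and 5.9 in telogen epidermis.

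Several genes had differences of opposite sign in the sorts. Dkk3 stood apart from telogen by 1.74 in neonatal dermis and by -1.51 in neonatal epidermis (3.25 ± 0.5, adjusted p = 0.000686), where it read 8.7, 8.1 and 7.76 in neonatal and 9.19, 9.67 and 10.24 in telogen. Gpc6 stood apart from telogen by 2.15 and -1.11 (3.26 ± 0.55, adjusted p = 0.00153), with 5.82, 6.33 and 5.05 in neonatal and 6.89, 6.4 and 7.24 in telogen epidermis. Wif1 stood apart from telogen by 1.85 and -1.33 (3.18 ± 0.82, adjusted p = 0.0268), with 3.54, 4.8 and 3.24 in neonatal and 4.85, 4.5 and 6.22 in telogen epidermis. None of these 3 was called in epidermis itself, and Wif1 was not called in neonatal dermis either. Ctnna3 stood apart from telogen by -3.34 and 1.79 (-5.12 ± 1.38, adjusted p = 0.0338), with 3.25, 3.22 and 1.75 in neonatal and 1.68, 2.3 and -1.12 in telogen epidermis, and it is dim throughout. Apcdd1 was called in both sorts with opposite signs, and the difference was -2.21 ± 0.27, adjusted p = 8.15e-05, called in all 21 alternatives. The differences between sorts of Rspo3 and Wif1 held in 7 and 10 of 20 alternatives, and those of Dkk1 and Gpc6 were lost with the second probe set of the gene.

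Fzd3 and Rspo1 differed as well. Fzd3 in epidermis read 6.36, 6.47 and 6.14 in neonatal, 5.96, 6.2 and 6.27 in transient, 6.32, 6.28 and 6.57 in sustained, and 6.63, 6.79 and 6.59 in telogen, so its D2 arrays were below telogen there, and its dermal change exceeded the epidermal one with transient (1.78 ± 0.39, adjusted p = 0.0361) and sustained activation (1.65 ± 0.39, adjusted p = 0.0272). These calls held in 6 of 20 and 9 of 21 alternatives, and both were lost with the second Fzd3 probe set. Rspo1 read 4.57, 4.17 and 5.21 in sustained and 4.0, 3.23 and 2.28 in telogen epidermis, and its sustained change was lower in dermis (-2.01 ± 0.51, adjusted p = 0.0406). For Gpc3 the sustained minus telogen difference was 0.7 in dermis and -0.81 in epidermis (1.51 ± 0.36, adjusted p = 0.0282), with neither called on its own. The Rspo1 and Gpc3 calls held in 7 and 9 of 20 alternatives.

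Frzb had the largest sustained difference between sorts (5.9 ± 1.4, adjusted p = 0.0278): its change was 4.99 in dermis and -0.91 in epidermis, where it read 3.33, -0.13 and 3.68 in sustained and 3.85, 3.44 and 2.31 in telogen arrays. This call held in 11 of 21 alternatives and was lost with the second Frzb probe set. All epidermal and all telogen dermal Frzb values lie below log2 5, so the size of this difference rests on dim signal. Ror2 was lower in sustained dermis (-1.71) and had a positive, uncalled difference in epidermis (1.04), and the sorts differed with both sustained (-2.76 ± 0.46, adjusted p = 0.00275) and transient activation (-2.47 ± 0.46, adjusted p = 0.0152). Its epidermal values were 5.81, 5.43 and 6.35 in transient, 5.88, 6.05 and 5.0 in sustained, and 4.39, 4.51 and 4.9 in telogen, so the D2 arrays lay above telogen there. Gpc4 behaved alike, with -1.41 in dermis, 0.47 in epidermis and a difference of -1.88 ± 0.26, adjusted p = 0.000609. Wnt5b stood apart from telogen by 1.86 in epidermis and by 0.19 in dermis (-1.67 ± 0.36, adjusted p = 0.0147), with dermal values of 8.2, 7.85 and 8.42 in sustained and 7.87, 7.82 and 8.21 in telogen. Tcf7 differed the other way (2.07 ± 0.42, adjusted p = 0.00992), with its change in dermis alone called, and its epidermal values were 6.32, 6.64 and 6.51 in sustained and 6.38, 6.3 and 6.47 in telogen arrays. This difference was lost with the second Tcf7 probe set. The plot of sustained changes in both sorts shows these genes off the diagonal.

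**Figure D5:**
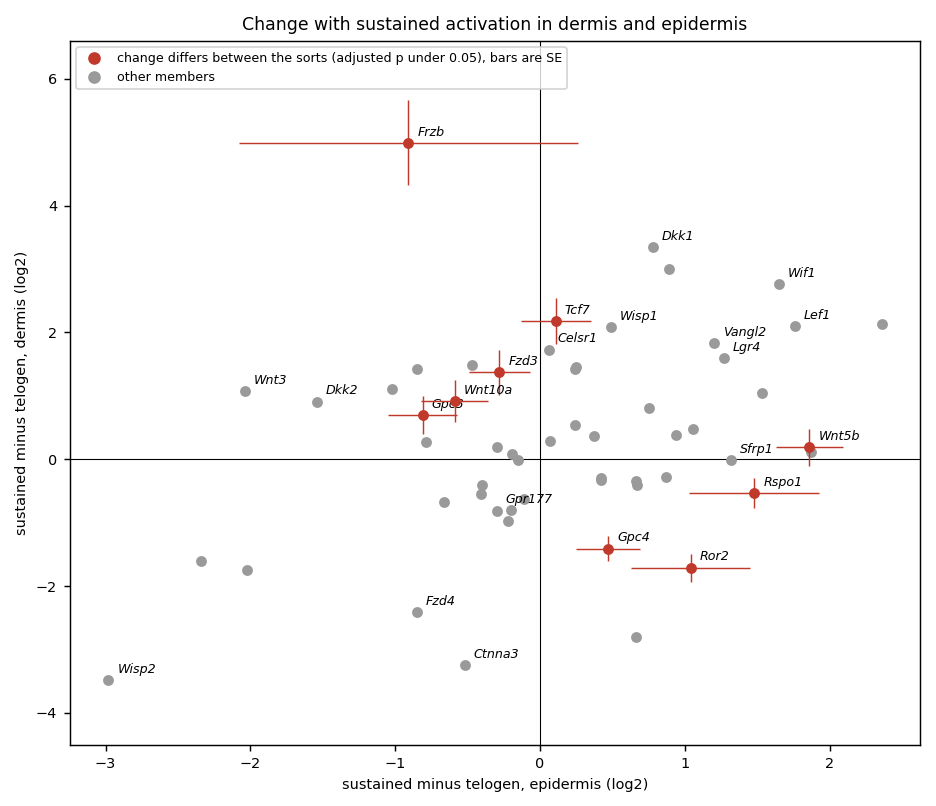
Sustained minus telogen difference of each of the 56 genes in dermis (vertical) and epidermis (horizontal), in log2 units. Red points with SE bars are the 9 genes whose change differed between the sorts by limma, and labels also mark genes called in either sort; Frzb stands at 4.99 in dermis and -0.91 in epidermis, and Wisp2 is low in both, at -3.48 and -2.98.

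Further genes of the pathway came from a list of 84, of which 32 are named here. In neonatal against telogen dermis 13 were called higher and 5 lower (named genes 23.4% and 28.2%). In transient dermis the counts were 2 and 0 (named genes 1.43% and 0.439%), and in sustained dermis 9 and 5 (named genes 18.0% and 19.2%). In epidermis they were 2 and 4 in neonatal (named genes 12.3% and 16.8%) and 1 and 0 in transient arrays (named genes 2.81% and 0.987%). In sustained epidermis they were 0 and 0 (named genes 3.05% and 3.22%). Sostdc1, an inhibitor of Wnt and BMP signals, was higher in transient (3.74 ± 0.5, adjusted p = 0.0188) and sustained dermis (3.26 ± 0.5, adjusted p = 0.00428), and its change exceeded that in epidermis (4.2 ± 0.61, adjusted p = 0.00453 with transient activation). Ccnd1, a cyclin of the cell cycle and a known beta-catenin target, was higher in sustained dermis (1.38 ± 0.25, adjusted p = 0.00883). Sp5, a transcription factor that beta-catenin induces, went against this direction, with -3.72 ± 0.98, adjusted p = 0.0389 in sustained dermis, and it was higher in neonatal epidermis (3.16 ± 0.68, adjusted p = 0.0227). All sustained dermal and all epidermal Sp5 values lie below log2 5, so the size of both differences rests on dim signal. Camk2a, a kinase of the calcium branch of the pathway, was lower in sustained dermis (-3.84 ± 0.61, adjusted p = 0.00509), where its values also lie below log2 5.

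Of the 15 members higher in neonatal dermis and the 11 higher in sustained dermis, 6 were the same genes (Dkk1, Frzb, Fzd3, Lef1, Tcf7 and Vangl2), and 4 were lower in both (Ctnna3, Gpc4, Ror2 and Wisp2). These 2 comparisons share their telogen arrays, so shared genes are a count and not a measure of likeness. All 3 members higher in transient dermis were also higher in sustained dermis. In the authors' deposited table every listed member probe set had the direction found here, 37 of 37 in neonatal, 10 of 10 in transient and 23 of 23 in sustained dermis, and 25 of 25, 12 of 12 and 12 of 12 in the same states of epidermis, all against telogen. Those lists were made from these same samples, so the match was largely fixed in advance and is no independent support.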

How the data were processed

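Total RNA of sorted back-skin cells was amplified and biotin-labelled, per the labels' protocols, and hybridised to 24 single-colour arrays. The log2 values were deposited by the authors. RMA and MAS5 appear in the submitters' processing notes, with no version and no role. Taken back to a linear scale, every array has a trimmed mean of 100 with 2% left out at each end, so a global shift of an array cannot be seen. The authors also deposited lists of regulated probe sets with a fold change, used only for gene names and direction; per the file headers the epidermal lists were filtered on an ANOVA p-value and a fold, while the dermal lists state no filter.

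After 64 control probe sets of 45101 were left out, 45037 were tested with limma 3.58.1 in R 4.3.3, with the 12 arrays of a sort in 1 fit for comparisons between states and all 24 in 1 fit for comparisons between sorts. Adjustment was by Benjamini-Hochberg over all probe sets, at 0.05. Plots were drawn with matplotlib 3.10.9, and tables were made with pandas 2.3.3 and numpy 2.4.6 under Python 3.11.15. Of the 56 members, 41 had 1 probe set and 15 had several (79 probe sets in all, at most 5 for a gene), of which the one with the highest mean was used. Symbols matched by the rule but not reported here number 2. The number of arrays limits the precision, and p-values measure the spread between 3 mice a group. The members, lists and tests were chosen with earlier results of these data known. The genes described array by array were those called with the largest differences in each comparison and, as a rule of choice only, the one with the highest mean signal in each role, and others were added after their values were seen. The fits were tested on simulated data.

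Per the labels each array carries a mouse number, and a number found in dermis and epidermis of 1 state was read as 1 animal, so the mouse was a block in an alternative fit. The deviations of 11 such pairs from their group means correlated at -0.05 to 0.15 (median 0.02). Equal numbers in different states are different animals (13 pairs in dermis, 0 to 0.05; 15 pairs in epidermis, -0.09 to 0.25). Alternatives were quantile normalization, centring on the array median, leaving out probe sets under a mean of log2 5 in every group, other sets of arrays in the fit, a trended robust variance, an offset of 16 before the log, the second probe set of a gene, the block, and leaving out each array.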

Additional observations from a re-analysis of the deposited data

Results flagged for a closer look

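The change from telogen differed between dermis and epidermis by limma in 28 tests, given here as the dermal change minus the epidermal change in log2 units. For the neonatal state the dermal change was higher for Dkk1 (4.19), Dkk3 (3.25), Fzd2 (1.19), Fzd3 (2.2), Gpc2 (3.85), Gpc6 (3.26), Rspo3 (4.22), Vangl2 (1.97), Wif1 (3.18) and Wnt10a (1.71). It was lower for Apcdd1 (-2.21), Ctnna3 (-5.12), Gpc4 (-1.62), Lrp4 (-1.87), Sfrp1 (-2.03) and Vangl1 (-1.29). With transient activation the dermal change was higher for Fzd3 (1.78) and lower for Gpc4 (-1.1) and Ror2 (-2.47). With sustained activation it was higher for Frzb (5.9), Fzd3 (1.65), Gpc3 (1.51), Tcf7 (2.07) and Wnt10a (1.51), and lower for Gpc4 (-1.88), Ror2 (-2.76), Rspo1 (-2.01) and Wnt5b (-1.67). Fzd3 and Gpc4 appear in all 3 states, which share the telogen arrays of both sorts. Fewer than 1 in 2 alternatives kept the calls of Lrp4 (8 of 20), Rspo3 (7 of 20), Sfrp1 (8 of 21) and Vangl2 (8 of 20) for the neonatal state, of Fzd3 (6 of 20) and Gpc4 (4 of 19) with transient activation, and of Fzd3 (9 of 21), Gpc3 (9 of 20), Rspo1 (7 of 20) and Wnt10a (4 of 20) with sustained activation. Lrp4 and Vangl1 differed between sorts in the neonatal state although neither was called within a sort. No group has 4 arrays, so single arrays were not tested for standing apart.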

How the results depend on the processing

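No called difference changed direction under any alternative run, and the count of members called between the sorts (48) moved by less than 1.5 times throughout. The cause of the other shifts was not tested. Shares of the named genes under each setting are not given here, so the shifts are not read as particular to the members. Quantile normalization left 10 of the 16 calls for the neonatal difference between sorts. Centring left 1 call in transient dermis, 1 in transient epidermis, 3 in sustained epidermis and 1 for the transient difference between sorts. Leaving out dim probe sets, which reduces the number tested, gave 7 in transient dermis, 7 in sustained against transient dermis, 19 in neonatal epidermis, 1 in sustained against transient epidermis and 5 for the transient difference between sorts. Fitting only the arrays compared, with fewer arrays behind each variance, gave 0 in transient dermis, 11 in sustained dermis, 0 in sustained against transient dermis, 0 in transient and 0 in sustained epidermis, and 0 and 4 for the transient and sustained differences between sorts. All 24 arrays gave 12 in transient epidermis.

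A trended robust variance gave 10 in transient dermis, 8 in sustained against transient dermis, 19 in neonatal and 9 in transient epidermis, 3 in sustained against transient epidermis and 6 for the transient difference between sorts. An offset of 16 gave 7 and 8 in the same dermal comparisons, 23, 8 and 2 in the same epidermal ones, and 9 and 15 for the transient and sustained differences between sorts. With the mouse as a replicate block, 11 calls were made in neonatal, 0 in transient and 6 in sustained dermis, 0 in sustained against transient dermis, 0 in transient and 0 in sustained epidermis, and 4, 0 and 3 for the neonatal, transient and sustained differences between sorts. Numbers shared by different states mark different animals, so within a sort that block pairs nothing.

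Leaving out 1 array at a time gave 15 to 22 calls in neonatal, 0 to 4 in transient and 11 to 15 in sustained dermis, and 1 to 5 in sustained against transient dermis. It gave 6 to 17 in neonatal, 0 to 2 in transient, 1 to 6 in sustained and 0 to 0 in sustained against transient epidermis. Between sorts it gave 48 to 49 calls, and 9 to 16, 1 to 5 and 5 to 10 for the neonatal, transient and sustained differences. Of the 56 members 1, Ctnna3, was dimmer than log2 5 in every group, where signal over background limits the values.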
